A study of Arabidopsis thaliana with 11 samples.

Results

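The comparison was between dark-grown seedlings of the Arabidopsis wild type Col raised on brassinazole (BRZ) and Col seedlings raised on a mock medium. It was made on the log2 of the deposited array values, with the 3 arrays titled for Col on BRZ set against the 3 titled for Col on mock, which are 6 of the 11 arrays of the series. Every seedling was etiolated and 4 days old, the BRZ groups had grown with 0.5 µM of the inhibitor, and total RNA of each group was hybridised to Affymetrix ATH1 arrays. The other 5 arrays held the arf2 mutant, a mutant of the auxin response factor gene ARF2, as 3 arrays on mock and 2 on BRZ. The series calls the 3 arrays of a group independent biological replicates, and the labels give neither an allele for arf2 nor a duration of treatment other than the age of the seedlings. RNA came from seedlings with no dissection described, so fewer cells of a type and less RNA per cell cannot be told apart.

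Brassinosteroids are plant steroid hormones that a receptor kinase at the cell surface perceives and that act through the transcription factors BZR1 and BES1. BRZ blocks a cytochrome P450 step of their synthesis. In darkness the hormone promotes growth of the hypocotyl, and seedlings that lack it are short and take on some features of seedlings raised in light. Wall-loosening proteins, auxin-responsive genes and genes of the photosynthetic apparatus are textbook classes connected with this hormone.

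Of 21886 probe sets tested, limma called 1956 (8.94%) at an adjusted p under 0.05. Of these, 1357 (6.2%) were higher and 599 (2.74%) lower on BRZ. Calls with at least a 2-fold change numbered 243 (1.11%), with 158 higher (0.722%) and 85 lower (0.388%), and the median size of a called log2 change was 0.60. With no correction, 5875 probe sets had a p under 0.05. The annotation names 1 gene for 971 of the called probe sets (49.6%), and the remainder are unnamed or shared between genes. Taking 1 probe set a gene, 964 of 12706 genes (7.59%) were called, 686 (5.4%) higher and 278 (2.19%) lower. Those are the shares to read the gene classes below against, and the median log2 change over all genes was 0.06.

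The balance of higher and lower calls depended on how the arrays were scaled. The median log2 value was 5.96 and 5.93 on Col mock arrays 1 and 2, and 6.20 on mock array 3. It ran from 6.20 to 6.22 on the BRZ arrays. The group means were 6.03 ± 0.15 (SD, n = 3) and 6.21 ± 0.01 (SD, n = 3), with an exact two-sided permutation p of 0.1, the smallest that 3 against 3 arrays allow. The median SD of a probe set was 0.18 among the mock arrays and 0.09 among the BRZ arrays. As deposited, 69.4% of the calls were higher, against 49.0% after quantile normalization and 34.8% with equal array medians, which moved the median log2 change of all probe sets to -0.12. Of the 1357 higher calls 616 stayed called under both scalings, and of the 599 lower calls 592 did. The calls of at least 2-fold, 158 higher and 85 lower as deposited, numbered 109 and 135 after quantile normalization and 95 and 163 with equal array medians. Of the original ones, 156 of the 158 and all 85 stayed called at any size. Without mock arrays 1 and 2, 273 of the 1357 higher and 334 of the 599 lower calls stayed called, as did 115 of the 158 and 83 of the 85. No call turned direction with equal array medians. Leaving out mock arrays 1 and 2 left 1 mock array, so here and below a call can be lost in that check through lower precision alone.

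**Figure D1:**
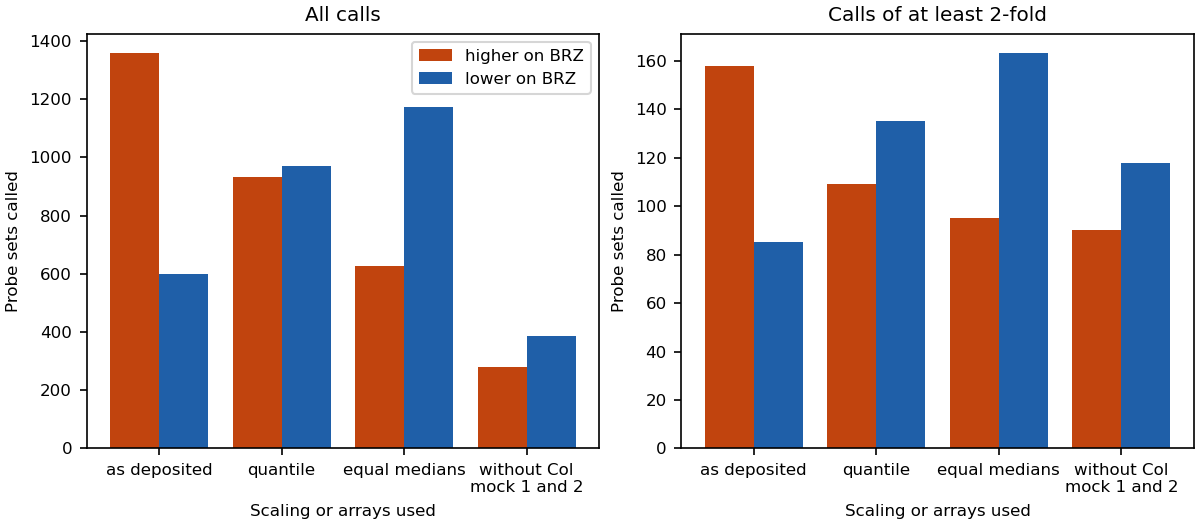
Bars give the number of probe sets called (adjusted p under 0.05, limma) higher or lower in Col on BRZ, all calls on the left and calls of at least 2-fold on the right, under 4 scalings or choices of arrays. Higher calls outnumbered lower ones as deposited (1357 and 599) and lower calls outnumbered higher ones with equal array medians (626 and 1172).

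Calls were spread unevenly over the range of levels. Genes were put in 4 classes of equal size by their mean level on the Col arrays. In the dimmest class, which starts at an intensity of 13.4, 8 of 3177 were higher and 3 lower. In the class from 51.3 to 187 there were 301 higher and 85 lower, and in the brightest class 282 higher and 144 lower. By chromosome the share of genes called ran from 7.24% to 7.87% on the 5 nuclear chromosomes.

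**Figure D2:**
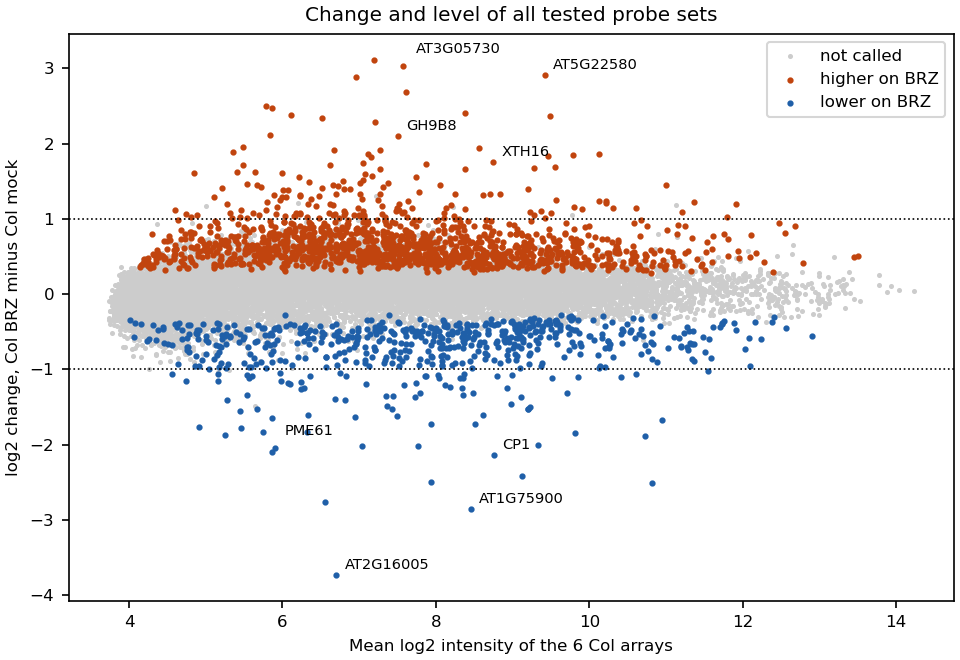
Each point is 1 of the 21886 probe sets tested, with the mean log2 intensity of the 6 Col arrays on the horizontal axis and the log2 change from mock to BRZ on the vertical axis. Coloured points were called, dotted lines mark a 2-fold change, and the deepest fall was that of AT2G16005 (log2 change -3.73).

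The 15 single-gene probe sets with the largest rises changed 3.18-fold to 8.18-fold, and the 15 with the largest falls 3.09-fold to 13.3-fold. They were chosen for their size, so their folds are a description of the extremes. The choice also required groups that did not overlap, so separate groups in any of these genes, here and below, follow from it. AT3G05730 read 84.9, 39.2 and 88.7 on the mock arrays and 447, 587 and 617 on BRZ (log2 change 3.03 ± 0.31 SE, adjusted p 0.00016). AT5G22580 read 210.3, 231 and 321 on mock and 1841, 1736 and 2093 on BRZ (2.91 ± 0.16, adjusted p 2.16e-06). In both genes all BRZ arrays lay far above all mock arrays, and AT3G05730 had its lowest value on mock array 2.

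AT5G15180, a class III peroxidase of the kind secreted to the wall, rose from 32.3, 29.5 and 29.2 to 146, 177 and 153 (log2 change 2.39 ± 0.12, adjusted p 1.84e-06). AT5G01740 rose from 267, 369.9 and 321 to 1590.4, 1486 and 1825 (2.36 ± 0.14). AT1G48750 read 312, 404 and 336 on mock and 1043, 1184 and 1107 on BRZ (1.67 ± 0.11). The groups were separate for each, with the replicates of a group close together. AT5G62340, AT3G53980, AT3G51400 and AT5G55620 rose 3.86-fold, 3.83-fold, 3.77-fold and 3.55-fold.

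The deepest fall was that of AT2G16005, a protein of the lipid-recognition family, which read 272, 483 and 415 on mock and 32.8, 24.1 and 29.3 on BRZ. Its BRZ values were close to the arrays' lower quartile, an intensity of 22.8. AT1G75900, a GDSL lipase, read 897, 995 and 936 on mock and 135, 132 and 124 on BRZ (log2 change -2.85 ± 0.11, adjusted p 3.59e-07). Both groups of AT1G75900 were narrow, while the mock values of AT2G16005 spread more widely.

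The peroxidase AT4G36430 read 295, 168 and 292 on mock and 36.7, 35.6 and 35.7 on BRZ (-2.76 ± 0.28, adjusted p 0.00013). CP1, a cysteine proteinase, fell from 801, 959.8 and 968 to 179, 230.3 and 209.9 (-2.14 ± 0.14, adjusted p 5.35e-06). AT4G11190, a dirigent-like protein, fell from 1658, 1829.8 and 1625 to 492, 435 and 498 (-1.84 ± 0.12, adjusted p 5.4e-06). For all 3 the groups did not overlap, and AT4G11190 kept the highest level on BRZ among the 15 that fell. AT3G55940, AT4G17470 and AT4G18280 fell 4.11-fold, 4.05-fold and 4.04-fold, AT1G72140 3.57-fold and AT1G03820 3.14-fold. AT5G04120 (log2 change -1.87) and AT4G30650 (-1.76) fell to mean levels below the arrays' lower quartile, so the depth of their falls is poorly set.

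**Figure D3:**
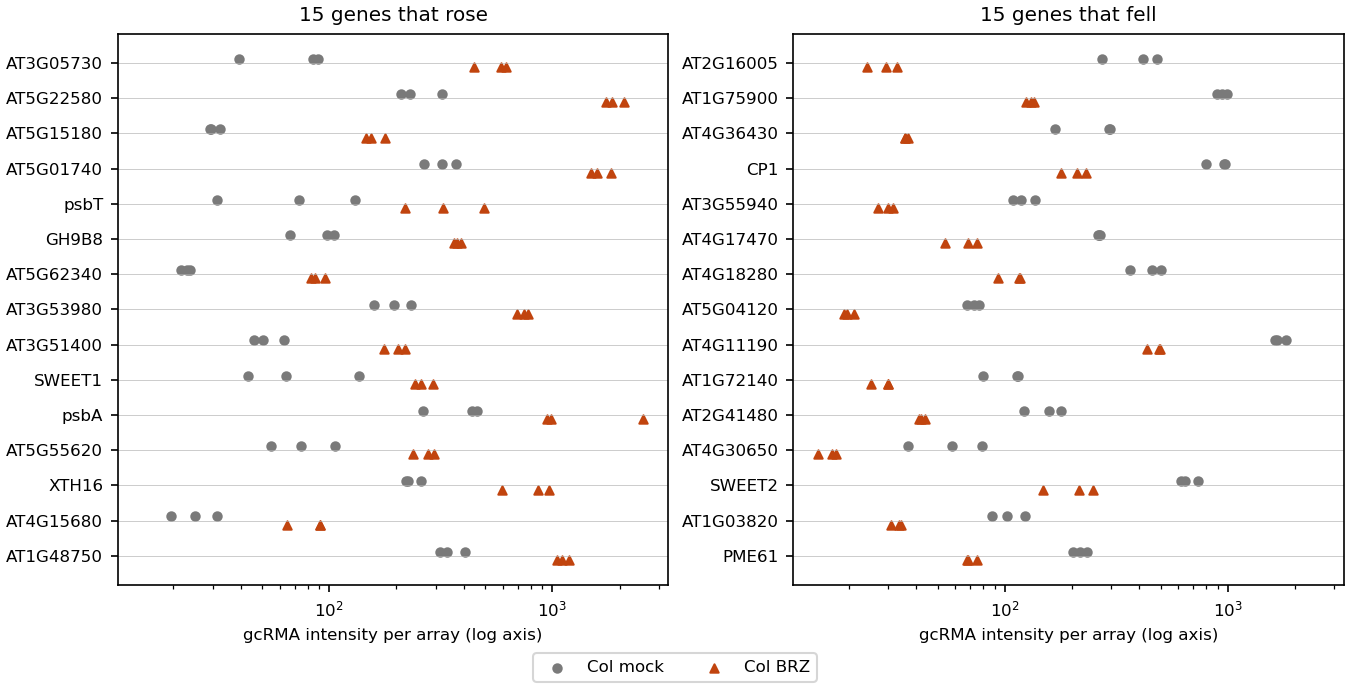
Points are the gcRMA intensities of the 30 named genes on each Col array (log axis), circles for the 3 mock arrays and triangles for the 3 BRZ arrays, with genes ordered by the size of their change. The groups do not overlap in any of the 30, which the choice of genes required, and psbT and psbA spread most among the risers.

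Enzymes and proteins of the cell wall held both rises and falls. The expansin list held both wall-loosening expansins and expansin-like genes. Of its 19 measured genes, 5 were lower (against 2.19% of all genes), 1 was higher and 13 were not called. Their median log2 change was -0.18, against 0.06 over all genes. It was -0.36 with equal array medians and -0.08 without mock arrays 1 and 2. EXPA4 read 941, 838 and 889 on mock and 375, 331 and 332 on BRZ (-1.36 ± 0.09, adjusted p 5.97e-06). EXLB1, an expansin-like gene, read 236, 273 and 272 on mock and gave values from 96.4 to 110.3 on BRZ (-1.35 ± 0.13, adjusted p 8.99e-05). Neither gene had overlapping groups, and 8 of the 19 expansins lay wholly below mock on BRZ (8.68% of all probe sets did). EXPB3 (-1.11), the expansin-like EXLA3 (-0.59) and EXPA8 (-0.32) fell too, and EXPA9 rose by 0.51. With equal array medians 7 of the 19 were lower and none was higher. Without mock arrays 1 and 2, 3 expansins were lower and none was higher, with EXPB3, EXLA3 and EXPA8 having adjusted p of 0.352, 0.139 and 0.311.

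Xyloglucan endotransglucosylases, which cut and rejoin a hemicellulose of the wall, gave 4 higher and 1 lower of 10 measured, with a median log2 change of 0.23. XTH16 read 222, 226 and 258 on mock and 865, 592 and 962 on BRZ (1.75 ± 0.19, adjusted p 0.000247). XTH32 read 79.9, 55.2 and 86.8 on mock and 179, 182 and 215 on BRZ (1.40 ± 0.19, adjusted p 0.00115). In both, each BRZ array was more than 2-fold above each mock array. XTH33 rose by 0.72 and XTH19 by 0.54, and EXGT-A3 fell by 0.40. The XTH19 call was lost with quantile normalization (adjusted p 0.0793), and without mock arrays 1 and 2 XTH19 and EXGT-A3 had adjusted p of 0.386 and 0.167. The list's median was 0.05 with equal array medians.

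GH9 endoglucanases, which trim glucan chains, gave 4 higher and none lower of 15 measured, although their median change was 0.03 (-0.15 with equal array medians). Higher calls numbered 3 after quantile normalization and 2 with equal array medians. GH9B8 read 97.3, 66.5 and 105 on mock and 362, 390.2 and 375 on BRZ (4.27-fold, log2 SE 0.15, adjusted p 1.28e-05). GH9B12 rose by 0.90, GH9C1 by 0.52 and GH9C2 by 0.32. GH9B8 stood clear of the others, and it alone of the 4 stayed called without mock arrays 1 and 2.

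Of 5 measured pectin methylesterases, which strip methyl groups from pectin, 2 rose, 2 fell and AT4G02300 was not called. Both after quantile normalization and with equal array medians, 1 was higher and 2 were lower. ATPMEPCRD, the brightest of them, read 5951, 6495 and 5833 on mock and 3157, 3186 and 3101 on BRZ (-0.95 ± 0.10, adjusted p 0.00014). PME61 read 202, 234 and 217 on mock and 67.6, 68.3 and 75.4 on BRZ (-1.63 ± 0.10, adjusted p 4e-06). The groups were well apart in both falls. ATPMEPCRB read 39.8, 30.4 and 56.1 on mock and 99.3, 88.3 and 115 on BRZ (2.46-fold, log2 SE 0.24, adjusted p 0.00585), and PMEPCRF rose by 0.48. Both rises lost their call without mock arrays 1 and 2 (adjusted p 0.159 and 0.386).

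The TBL family, whose characterised members acetylate wall polysaccharides, gave 3 higher and 3 lower of 24 measured. Both after quantile normalization and with equal array medians, 1 was higher and 3 were lower. TBL37 read 1004, 963 and 1065 on mock and 391, 338 and 346 on BRZ (-1.50 ± 0.12, adjusted p 2.79e-05). TBL45 moved the other way, from 155, 143 and 174 to 324, 279.9 and 281 (0.91 ± 0.13, adjusted p 0.00124). TBL38 fell by 0.51 and AT2G31110 by 0.47, and TBL36 rose by 0.57 and TBL28 by 0.44. The last 4 calls were lost without mock arrays 1 and 2. Of 8 cellulose synthase-like genes limma called none, though 4 had an unadjusted p under 0.05, and 6 had a positive change.

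Peroxidases of the class III family moved in opposite directions. Among the 6 in the list, 2 fell and none rose, and the peroxidases AT5G15180 and AT4G36430 described above are outside that list of 6. AT2G41480 read 179, 122 and 158 on mock and 42.3, 41.1 and 43.7 on BRZ (-1.84 ± 0.13, adjusted p 9.35e-06). AT5G66390 read 1703, 1697 and 1564 on mock and 769.7, 888 and 886 on BRZ (-0.97 ± 0.13, adjusted p 0.000877). Each lay wholly below mock on BRZ, and the list's median log2 change was -0.33 (-0.14 without mock arrays 1 and 2). UPB1, a bHLH factor known as a repressor of peroxidase genes in the root, rose from 237, 200.5 and 290.3 to 441, 414 and 494 (0.90 ± 0.15, adjusted p 0.00333, or 0.0881 without mock arrays 1 and 2). HRGP1, an extensin-type structural protein, rose by 0.97, and the other 3 measured genes of its list were not called. HRGP1 was dim, at 20.1 to 28.4 on mock and 42.5 to 54.8 on BRZ. Its probe set is of a type that may cross-hybridise, and whether it does was not tested.

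**Figure D4:**
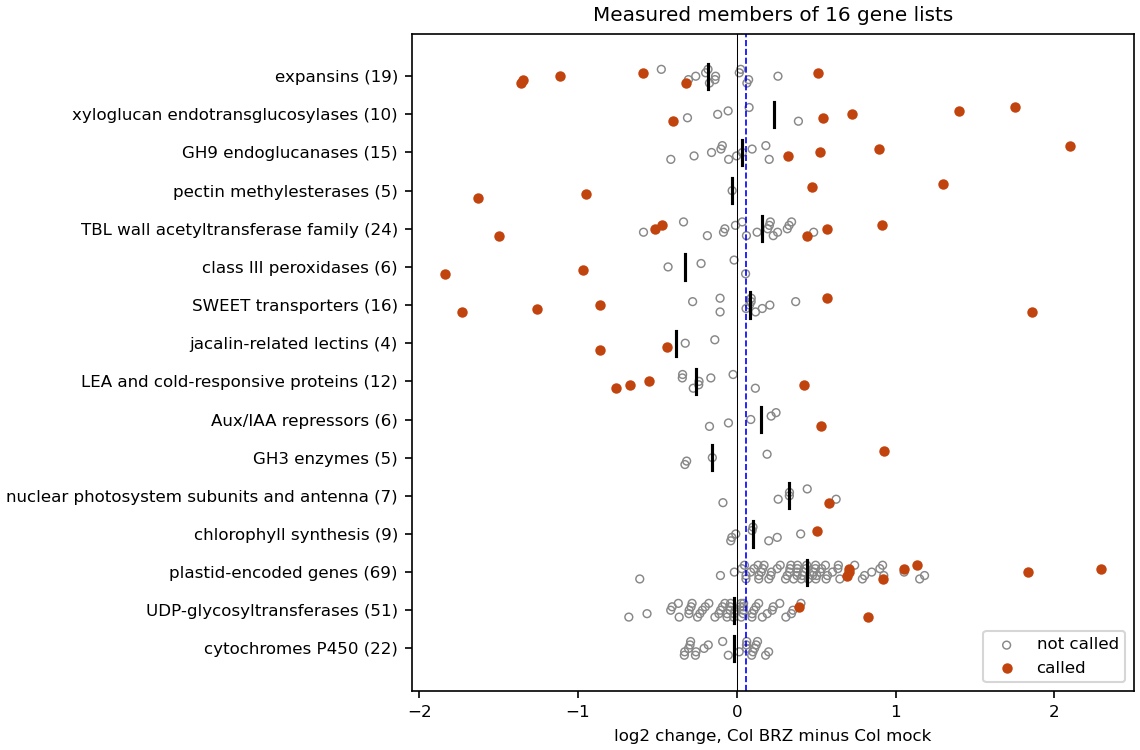
Each point is the log2 change of 1 measured gene in 16 gene lists (number of measured genes in brackets), filled where limma called it. Black bars are list medians and the dashed line is the median over all genes (0.06). The medians are -0.18 for expansins and 0.44 for plastid-encoded genes, and most points of the UDP-glycosyltransferases and cytochromes P450 lie close to 0.

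With the values as deposited, auxin-responsive classes gave single calls. Of 5 measured GH3 genes, whose enzymes join auxin or jasmonate to amino acids, GH3.3 alone was called. It read 365, 352 and 365 on mock and 637, 729 and 695 on BRZ (0.93 ± 0.10, adjusted p 0.000216). GH3.17 (-0.32), GH3.1 (-0.33), GH3.9 (-0.15) and WES1 (0.19) were not called. The GH3.3 groups were narrow and apart, while both GH3.17 and GH3.1 lay wholly below mock on BRZ without passing the test. Of all probe sets, 8.68% lay wholly below mock. Both after quantile normalization and with equal array medians, 1 of the 5 GH3 genes was higher and 1 was lower.

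Of 6 Aux/IAA repressors, IAA29 rose (0.53 ± 0.13, adjusted p 0.0229). With equal array medians none of the 6 was called. Of 3 SAUR genes, AT3G53250 rose from 70.5, 59.9 and 82.6 to 141, 118 and 188 (1.05 ± 0.18, adjusted p 0.00449). The other 2 SAUR genes were not called and had negative changes, the lowest -0.80, and the list's median was -0.13. With equal array medians 1 of the 3 SAUR genes was higher and 1 was lower. UGT74D1, a glucosyltransferase that acts on auxins, rose from 285, 328 and 349.5 to 529, 582 and 592 (0.83 ± 0.11, adjusted p 0.000967). Only UGT71C4 (0.39) was called besides it among 51 UDP-glycosyltransferases, and it lost its call after quantile normalization (adjusted p 0.129), with equal array medians (0.208) and without mock arrays 1 and 2 (0.394). Without mock arrays 1 and 2, IAA29 and AT3G53250 had adjusted p of 0.237 and 0.119.

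Of the brassinosteroid pathway itself few genes were measured. BAT1, an acyltransferase that inactivates brassinosteroids when overproduced, read 374, 469 and 358 on mock and 225, 277 and 239 on BRZ. It fell by 0.69 (SE 0.13, adjusted p 0.00571), and its groups did not overlap. That call was lost without mock arrays 1 and 2 (adjusted p 0.0901). The receptor BRL1 (-0.13) and the factor BIM1 (-0.09) were not called. The named probe sets covered none of the synthesis enzymes, so those genes were not analysed here. Limma called none of 4 gibberellin genes and none of 6 cytokinin response regulators, with 1 of each list at an unadjusted p under 0.05.

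Genes of the photosynthetic apparatus gave few calls. Of 7 nuclear photosystem and antenna genes 6 had a positive change, the median was 0.33 (0.15 with equal array medians), and PSAN, a subunit of photosystem I, was called. PSAN read 1233, 1087 and 1176 on mock and 1659, 1749 and 1806 on BRZ (0.58 ± 0.10, adjusted p 0.00366). In chlorophyll synthesis CHLM, the methyltransferase of magnesium protoporphyrin, was the 1 of 9 genes that rose (0.51 ± 0.11, adjusted p 0.0174). With the array medians made equal, CHLM had an adjusted p of 0.0756 and was no longer called, nor was it without mock arrays 1 and 2 (0.358).

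Of 69 measured genes encoded in the plastid genome, limma called 8 higher, none lower and 61 not at all. A positive change was measured for 66, and the median was 0.44. On 31 of them every BRZ array lay above every mock array (19% of all probe sets did). After quantile normalization 7 of the 69 were higher and none was lower. With equal array medians 5 were higher and 1 was lower. That was rpl36 (-0.79, adjusted p 0.0266 in limma), which had not been called as deposited (-0.61, adjusted p 0.0771). psbA, the gene of the D1 protein of photosystem II, read 263, 434 and 458 on mock and 945, 986 and 2554 on BRZ (1.83 ± 0.43, adjusted p 0.0229). The third BRZ array stood far above the other 5. psbT, a small subunit of photosystem II, read 31.3, 73.4 and 130.2 on mock and 325, 219.5 and 495 on BRZ (2.29 ± 0.51, adjusted p 0.0174). Its mock values varied more widely than its BRZ values, with mock array 1 the lowest.

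The median plastid log2 level of an array averaged 10.4 ± 0.33 (SD, n = 3) on mock and 10.8 ± 0.24 (SD, n = 3) on BRZ, with an exact two-sided permutation p of 0.3. The median change was 0.36 after quantile normalization, 0.26 with equal array medians and 0.13 without mock arrays 1 and 2. None of the 8 calls was kept without mock arrays 1 and 2. Of the 30 genes with the largest changes, psbT and psbA were the 2 that lost their call under some setting (adjusted p up to 0.332 and 0.299).

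Sugar transporters of the SWEET family, which let sugars pass membranes, moved both ways, with 2 of 16 higher and 3 lower. SWEET1, a glucose carrier of the plasma membrane, read 64.3, 43.4 and 136 on mock and 257, 291 and 243 on BRZ (1.86 ± 0.31, adjusted p 0.00371). SWEET2, which sits on the vacuole, read 615, 642 and 734 on mock and 148, 215 and 249 on BRZ (-1.73 ± 0.18, adjusted p 0.000158). SWEET17, a vacuolar fructose carrier, read 106, 114 and 134 on mock and 47.1, 46.3 and 54.0 on BRZ (-1.26 ± 0.14, adjusted p 0.00022). Groups were separate in all 3. SWEET3 fell by 0.86, and SWEET11, a sucrose exporter that feeds the phloem in leaves, rose by 0.57. All 5 calls were kept under both other scalings and without mock arrays 1 and 2.

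Some genes tied to ER bodies, compartments that store glucosidases in seedlings of the mustard family, fell: both measured regulators and 2 of 4 jacalin-related lectins. NAI1, the bHLH factor needed to form these bodies, fell by 0.49 (SE 0.12, adjusted p 0.0242). NAI2, a protein of the bodies, fell from 2766, 2653 and 2634 to 1876, 1773 and 1774 (-0.57 ± 0.08, adjusted p 0.0013). The lectin JAL33 fell from 3414, 3538 and 3535 to 2082, 1821 and 1881 (-0.86 ± 0.09, adjusted p 0.000234). JAL22 fell by 0.44, and JAL23 and JAL34 (-0.32 and -0.14) were not called. All 4 measured jacalin-related lectins lay wholly below mock on BRZ (8.68% of all probe sets did). The main glucosidase of these bodies, PYK10, was not called (-0.12, adjusted p 0.434), and of 21 beta-glucosidases 1 rose and 1 fell. Both after quantile normalization and with equal array medians, none of the 21 was higher and 1 was lower. NAI1 had an adjusted p of 0.0608 without mock arrays 1 and 2.

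Of 12 measured proteins of the dehydration and cold response, 3 fell and 1 rose, and the median log2 change was -0.26 (-0.14 without mock arrays 1 and 2). With equal array medians 3 were lower and none was higher. COR47, a dehydrin, read 9381, 9612 and 8848 on mock and 6168, 6567 and 6223 on BRZ (-0.55 ± 0.09, adjusted p 0.00255). TIL, a lipocalin induced by temperature, read 2184, 2062 and 2158 on mock and 1367, 1314 and 1328 on BRZ (-0.68 ± 0.11, adjusted p 0.0034). Both genes had narrow, separate groups. LEA4-5 fell by 0.76 and AT1G54410 rose by 0.43, and TIL alone of the 4 stayed called without mock arrays 1 and 2.

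Regulators and other families gave few calls. The bZIP factor EEL rose from 65.9, 85.5 and 76.0 to 170.5, 142 and 145 (1.01 ± 0.11, adjusted p 0.00022). The ubiquitin ligase PUB19 fell from 214, 301 and 260.2 to 134, 139 and 141 (-0.89 ± 0.12, adjusted p 0.000781). Both pairs of groups were apart. The peptide gene RALFL22 fell by 0.81 and RALFL31 rose by 0.57 among 10 RALF genes, which encode secreted signalling peptides. The tetraspanin TET10 rose by 0.97, the subtilase SBT4.12 by 0.79 and WRKY22 by 0.77, and ACT11 fell by 0.82. Of these, RALFL31 and WRKY22 lost their call without mock arrays 1 and 2 (adjusted p 0.303 and 0.159). By list, 2 of 22 bZIP factors, 1 of 10 subtilases and 1 of 7 WRKY factors were higher. Of 9 U-box ligases 1 was lower, as was 1 of 2 measured actin genes. Of 15 tetraspanins 1 was higher and 1 was lower. Limma called none of 22 cytochromes P450, 11 autophagy genes or 7 tubulins. At an unadjusted p under 0.05 there were 0, 0 and 3 of them. With equal array medians 2 of the 7 tubulins were lower.

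Some genes that changed sit next to each other on the chromosome. Of 5477 pairs of measured neighbours, 31 pairs were both higher, 2 both lower and 18 opposite. A gene that was higher had a higher neighbour on 62 of its 656 measured sides (9.45%). Of all 12706 genes 5.4% were higher, a share that also counts genes with no measured neighbour and so is not a like baseline. Both genes stayed called in 13 of the 31 pairs after quantile normalization, in 8 with equal array medians and in 3 without mock arrays 1 and 2. For lower genes the share was 4 of 263 measured sides (1.52%), and 2.19% of all genes were lower. The largest paired rise, picked out after its values were seen, was a run of 3 adjacent genes that starts with the glutaredoxin gene AT4G15680. That gene read 19.5, 24.9 and 31.4 on mock and 91.0, 64.4 and 91.1 on BRZ (1.71 ± 0.19, adjusted p 0.000232). AT4G15690 and AT4G15700 rose by 1.63 and 1.61. The 3 genes have a probe set each, and whether similar sequence lets one transcript reach several of the probe sets was not tested.

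Markers of single cell types gave no call in limma, though few were measured, and 1 of 3 guard cell genes had an unadjusted p under 0.05. The root hair genes EXPA7 and EXPA18 read 16.6 to 37.0 over all 6 arrays, the guard cell lineage genes MUTE and SPCH 16.9 to 22.3, and FMA 28.4 to 42.1. CLV3 of the shoot meristem read 16.6 to 18.3. These levels lie near the arrays' lower quartile. PORB, a protochlorophyllide reductase, read 3469, 3609 and 3622 on mock and 4406, 3231 and 3939 on BRZ. Its level was high in both groups, which overlapped (log2 change 0.10, adjusted p 0.684). RCA, the activase of Rubisco, read 2101 to 2519 over the 6 arrays with overlapping groups. Markers of xylem, phloem, endodermis, root tip and seed storage were not analysed here.

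The size and direction that chose the genes came from the Col arrays, while the arf2 arrays entered the choice through the filter and the shared variances of the model. BRZ gave 1271 calls there (5.81%), 638 higher (2.92%) and 633 lower (2.89%). Of the 15 genes with the largest rises in Col, 10 rose in arf2 as well and all 15 had a positive change. Of the 15 with the largest falls, 11 fell in arf2, PME61 rose (0.75 ± 0.11, adjusted p 0.00193) and 3 were not called. AT1G75900 changed by -2.94 in arf2 and AT5G22580 by 3.10, close to their values in Col.

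The BRZ effect differed between genotypes, by limma's interaction, for 8 of the 30 genes (0.841% of all probe sets). The largest differences were at AT2G16005 (-3.73 in Col and 0.05 in arf2, adjusted p 0.000325), AT3G05730 (3.03 and 0.03, adjusted p 0.0114) and PME61 (-1.63 and 0.75, adjusted p 3.56e-05). The Col values that chose the genes enter this test too, so the differences may be overstated. Differences were not called for the plastid genes psbT (2.29 and 0.49) or psbA (1.83 and 0.22), whose errors were wide.

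**Figure D5:**
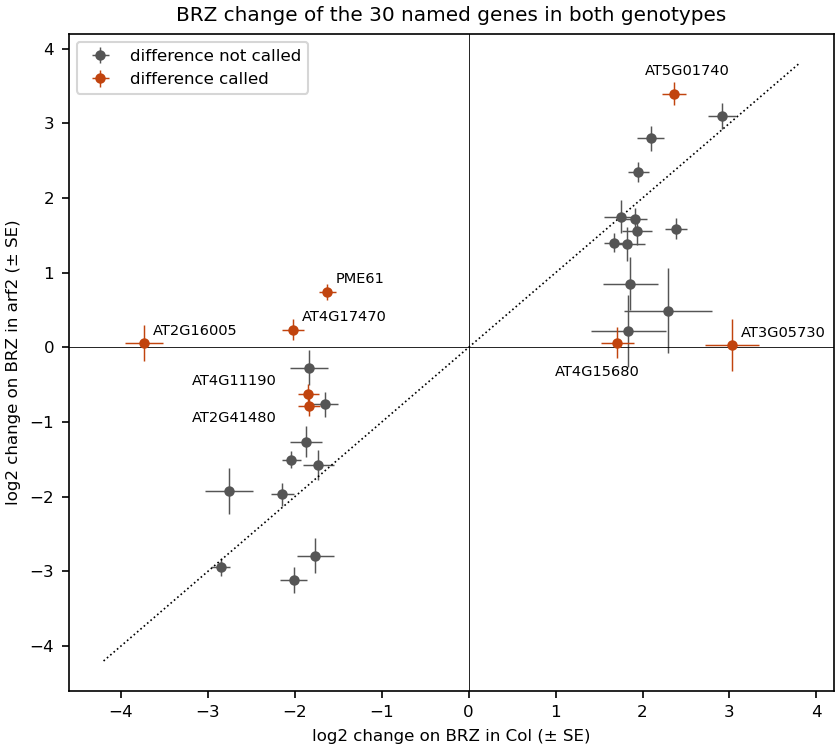
Points are the 30 named genes, with the log2 change on BRZ in Col (3 arrays against 3) on the horizontal axis, that in arf2 (2 against 3) on the vertical axis, and SE from the model as bars. The dotted line marks equal change. All 15 genes that rose in Col lie above 0 in arf2, the 8 with a called difference are named, and among them are AT2G16005 and AT3G05730, with changes of 0.05 and 0.03 in arf2.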

How the data were processed

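The deposited values are intensity estimates on a linear scale, which the authors normalized and summarised per probe set with gcRMA after quality control with simpleaffy, per the series' design text and the submitters' processing notes; versions are not given in the sources used here. The log2 of the deposited values was taken first. Of 22810 probe sets, 64 controls were left out, and a probe set was tested where its log2 value exceeded 4 on at least 2 arrays. Among the remaining 22746, the annotation gave a single gene to 13513, several genes to 503 and none to 8730 (38.4%), and gene names came from the TAIR10.1 gene table. The design of the array gives no genome build here, so no coordinates are printed.

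All 11 arrays entered 1 model in limma 3.58.1 (R 4.3.3) with a mean per group, and the contrast was Col on BRZ minus Col on mock. The p-values are two-sided, moderated and adjusted by Benjamini-Hochberg over all probe sets tested, and errors are SE. Arrays give no counts, so their number limits the precision. A gene with several probe sets was represented by its brightest. Named genes were the 15 largest rises and 15 largest falls among called single-gene probe sets with no overlap between groups and a log2 value over 4 on every array of at least 1 Col group. Up to 4 called members of each of 95 gene lists with the largest change, and all members of lists of up to 5 measured genes, could be named too. EXPA8, EXPA9, EXGT-A3, SWEET11, AT2G31110, TBL28, PYK10 and the neighbours of AT4G15680 fall outside that rule and were named after their values were seen. The comparison, the lists and the naming rule were chosen with earlier results of these data known, and some lists after the annotation had been read. Lists are described by counts and medians with no test. The procedure was tested on simulated data. Alternatives were other filters, scalings, variance models, array weights, a replicate block, other gene summaries, a stricter threshold and the removal of arrays. The counts of calls, 2-fold calls and neighbour pairs that stayed called were added after seeing the data. Promoter motifs were not analysed here. The result of 1 list is not reported here. Python 3.11.15 and matplotlib 3.10.9 made the figures.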

Additional observations from a re-analysis of the deposited data

Results flagged for a closer look

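By limma's interaction test, the BRZ effect differed between the genotypes at 13 of the genes named here (adjusted p under 0.05). Over all probe sets tested it differed at 184 of 21886 (0.841%). Each value below is the log2 change on BRZ in arf2 minus that in Col, and the Col arrays that chose the genes enter it. Among the genes that rose most in Col, the difference was -3.00 at AT3G05730, -1.65 at AT4G15680 and 1.03 at AT5G01740. Among those that fell most, it was 3.79 at AT2G16005, 2.37 at PME61, 2.25 at AT4G17470, 1.22 at AT4G11190 and 1.06 at AT2G41480. Among members of the gene lists, it was 0.80 at the expansin EXPA4, -1.02 at the auxin-conjugating enzyme gene GH3.3 and -0.74 at SWEET11. It was -0.82 at the subtilase SBT4.12 and 0.63 at SCPL45, a serine carboxypeptidase-like gene. Groups of 2 or 3 arrays are too small to test single arrays as outliers.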

How the results depend on the processing

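Against 1357 probe sets higher and 599 lower as reported, equal array medians gave 626 and 1172, and quantile normalization 933 and 970. A fit of the 6 Col arrays alone gave 612 and 368, and an adjusted p under 0.01 gave 456 and 315. Of 167 called genes among the named genes, the list members and the neighbour pairs, 61 lost their call in the fit of the Col arrays alone. Without Col BRZ array 3, 67 of the 167 did, and 40 did with the replicate number as a block. The paragraphs above do not mark each of these losses. Leaving out Col mock arrays 1 and 2, which left 1 mock array assumed to vary like the other groups, gave 280 and 385. Leaving out 1 array at a time gave 594 to 3967 higher and 342 to 1117 lower. The lowest counts came without Col BRZ array 3 and the highest without Col mock array 3. Omitting Col mock array 1 gave 639 and 488, and omitting Col BRZ array 1 or 2 gave 645 and 396 or 723 and 435. No filter, stricter filters, a floor, trend and robust variances, array weights and removal of cross-hybridising probe sets kept both counts within 1.5 times. No called probe set, list member or named gene was called in the opposite direction under equal array medians, and none of the 30 named genes turned direction under any alternative run.

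With the replicate number as a block the counts were 868 higher and 460 lower. Numbers do not settle a pairing: after removal of group means, same-numbered Col arrays correlated at 0.09 to 0.14 and differently numbered ones at -0.08 to -0.04, while over all groups the same number gave -0.59 to 0.14. Share of promoters with a motif was not run, since no promoter sequence was at hand.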
